A study of Macaca mulatta with 16 samples.

Results

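Fatty acid uptake, storage and oxidation was followed through 41 genes in extraocular muscle, the striated muscle that moves the eye, of adult rhesus macaques (Macaca mulatta). The genes were chosen by name from knowledge of the pathway, with earlier results of these data already known. Every probe set of the human array types U133A and U133B was taken whose platform annotation lists such a gene, alone or beside another symbol. Of the 41 genes, 40 were found among 19044 annotated symbols, and ACSL3 is not analysed here. They had 66 probe sets for 38 genes on U133A and 13 probe sets for 8 genes on U133B, 79 of 44928 probe sets in all. A probe set is a group of short probes for 1 transcript stretch, so that the several probe sets of 24 of these genes share a target and are not replicates, and 6 genes were on both array types.

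RNA came from 4 kinds of sample, each with 2 arrays of either type, 16 arrays in all. The orbital layer (the outer fibres, toward the bony orbit) and the global layer (the inner fibres, toward the eyeball) were microdissected, by laser where the labels say how, and their RNA was amplified with T7 polymerase. The medial rectus and the lateral rectus, the muscles that turn the eye toward and away from the nose, were used whole under the standard protocol. The labels name no strain, sex or treatment and do not say which arrays share an animal, so every p-value reflects the spread between arrays alone, which may be technical. On U133A, orbital layer replicate 1 has a title naming the orbital layer and a source name naming the global layer, and on U133B the source name of global layer replicate 1 does not say which layer; titles were used, and the layer results that moved most without either array are also given without it.

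Muscle takes up fatty acids that lipoprotein lipase frees from blood triglyceride, binds them to carrier proteins and activates them to acyl-CoA. The carnitine shuttle moves the acyl group into mitochondria, where repeated rounds of dehydrogenation, hydration, a further dehydrogenation and thiolysis shorten the chain and feed electrons to the respiratory chain. What is not burned is re-esterified and kept in lipid droplets. Extraocular muscle is known for many mitochondria and a dense capillary supply, most of all in the orbital layer.

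Values below are intensities in arbitrary units, scaled to a common mean on each array, and they compare samples within a probe set only, since human probes bind different macaque transcripts with different strength. Differences are log2 differences with their standard error (SE), and "passed" means an adjusted p under 0.05 with limma. In bulk RNA, fewer cells of a type and less RNA per cell cannot be told apart. All 10 muscle fibre markers, among them ACTA1, CKM and MYH13, reached the level needed for a test on U133A. Of 66 member probe sets on U133A, 15 never reached that level, 44 reached it in all 3 comparisons and the other 7 in 1 or 2 of them; on U133B, 4 of 13 never did. ACSL4, ACADL and PLIN2 reached it with no probe set in any comparison; their arrays read between 244 and 716 for ACSL4, between 72.3 and 1107 for ACADL and between 174 and 1553 for PLIN2.

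The first comparison set the orbital layer against the global layer. No member probe set passed: 0 of 46 tested on U133A, where 0.409% of all tested probe sets passed, and 0 of 9 on U133B, where 0.021% passed. A miss of the threshold with 2 arrays a group does not show that the layers are alike. At an unadjusted p under 0.05 there were 5 of 46 members on U133A and 2 of 9 on U133B, against 905 of 9532 probe sets (9.49%) and 738 of 9510 (7.76%) over all tested. Differences of over 1 log2 unit were seen for FABP4 on both array types, CD36 and PPARA with 1 probe set each, all lower in the orbital layer, and FABP5, higher; those of PPARA overlapped between the layers. Among tested members, 16 were higher and 30 lower in the orbital layer on U133A (median −0.13, against −0.037 over all tested probe sets), and 2 were higher and 7 lower on U133B (median −0.44, against 0.035).

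CD36, the membrane protein that carries long-chain fatty acids into muscle fibres and capillary endothelium, read 16890 and 16700 on orbital arrays with probe set 228766_at, against 46724 and 36296 on global arrays. Both orbital arrays lay below both global arrays, by more than 1.5-fold in every pairing. The difference of −1.29 (SE 0.25), or 2.45-fold lower, had an adjusted p of 0.260 with limma. Without global layer replicate 1 it was −1.11, with an adjusted p of 0.227 with limma. On U133A, CD36 read 1382 and 1182 on orbital arrays, against 3122 and 1770 on global arrays, with probe set 206488_s_at, and 1416 and 1587 against 2331 and 2027 with 209555_s_at. Neither pair of groups overlapped, and all 3 tested CD36 probe sets were lower in the orbital layer (−0.88 and −0.54 on U133A, with adjusted p of 0.455 and 0.560 with limma).

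FABP4, a fatty acid binding protein made by adipocytes, macrophages and capillary endothelium, read 900 and 2028 on orbital arrays, against 3134 and 6469 on global arrays, with probe set 203980_at on U133A. With probe set 235978_at on U133B it read 568 and 1688 on orbital arrays, against 2681 and 4705 on global arrays. The groups did not overlap on either array type, although the arrays of each layer also lay well apart from each other. The differences were −1.74 (SE 0.46, adjusted p = 0.300 with limma) and −1.86 (SE 0.55, adjusted p = 0.484 with limma). The U133A difference turned on single arrays: without orbital layer replicate 2 it was −2.32 and passed with an adjusted p of 0.000692 with limma, and without orbital layer replicate 1, the array with conflicting labels, it was −1.15 (adjusted p = 0.414 with limma). With the replicate number as a block it also passed, with an adjusted p of 0.0121 with limma, although the numbers are not known to pair the arrays. On U133B, the difference was −2.26 (adjusted p = 0.311 with limma) without global layer replicate 1.

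FABP5, a binding protein of wider tissue range, went the other way: it read 3640 and 8125 on orbital arrays, against 1854 and 2076 on global arrays. The orbital arrays lay above the global arrays but far apart from each other. The difference was 1.47 (SE 0.38, adjusted p = 0.276 with limma). Without orbital layer replicate 1 it was 2.05 and passed, with an adjusted p of 0.00508 with limma, so that the call depends on which orbital array is used. FABP3, the binding protein typical of heart and skeletal muscle, showed no such gap: 205738_s_at read 10172 and 7626 on orbital arrays, against 8502 and 8226 on global arrays. LPL, the lipase on the capillary wall, read 7130 and 20037 on orbital arrays, on either side of 13011 and 12978 on global arrays. SLC27A1, a fatty acid transport protein, read 3490 and 3996 on orbital arrays, against 5002 and 5111 on global arrays, without overlap (−0.44, adjusted p = 0.754 with limma).

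**Figure D1:**
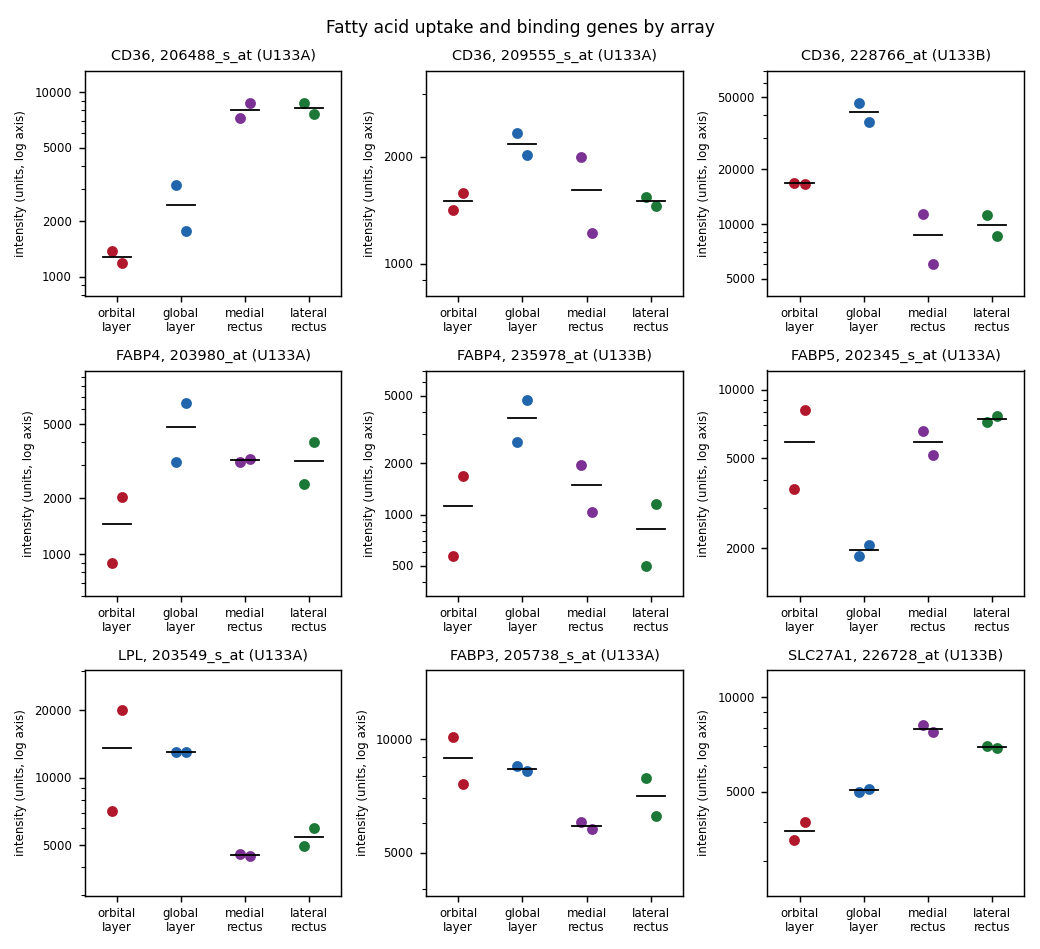
Scaled intensity (y axis, log scale) of 9 probe sets of fatty acid uptake genes in each array of the orbital layer, global layer, medial rectus and lateral rectus, with 2 points a group. CD36 on 228766_at lies at 16890 and 16700 in the orbital layer, below 46724 and 36296 in the global layer, while FABP5 lies above, at 3640 and 8125 against 1854 and 2076.

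Other cell types and RNA measures differed between the layers as well. Of 12 endothelial markers, 8 were tested on U133A and all 8 read lower in the orbital layer, none passing (median −0.30), with summed levels of 19057 to 20928 in the orbital layer and 22986 to 29331 in the global layer. On U133B, 3 of 4 tested endothelial markers read higher in the orbital layer, with sums of 26329 to 27402 there and 23093 to 26114 in the global layer. Of 8 adipocyte markers measured on U133A, 5, among them ADIPOQ, LEP and PLIN1, stayed below the test level on all arrays, and the sums were 4437 to 5268 in the orbital layer and 4538 to 4613 in the global layer. Macrophage marker sums were 8104 to 10115 in the orbital layer and 8170 to 8922 in the global layer. On U133A, fibroblast markers read higher in the orbital layer in 8 of 9 (sums 231148 to 263649, against 195832 to 197181). Muscle fibre markers there read lower in 8 of 10 (sums 647566 to 699477, against 761676 to 812141). On U133B, 2 of 4 tested fibroblast markers read higher and 2 lower. Their sums overlapped, at 18657 to 23811 in the orbital layer and 18909 to 21668 in the global layer. The 1 muscle fibre marker tested on U133B, TTN, read higher in the orbital layer (0.31). For ACTB on U133A, 3′ signal divided by 5′ signal, which grows as the labelled RNA stops short of the 5′ end, was 5.30 and 5.87 for the orbital layer, against 2.84 and 2.88 for the global layer. The same ratio for GAPDH did not separate the layers, at 2.49 and 3.74 on orbital arrays, against 4.33 and 2.04 on global arrays of U133B, and likewise overlapping on U133A. Median intensity overlapped on U133A as well, at 524.1 and 476 on orbital arrays, against 587.5 and 513.4 on global arrays. On U133B it did not, at 692.8 and 705.1 on orbital arrays, against 682.6 and 629.4 on global arrays. The ACTB ratio also separated the layers on U133B, at 5.29 and 4.43 on orbital arrays, against 3.54 and 3.61 on global arrays. The part of these measures in the CD36, FABP4 and FABP5 differences was not tested.

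Activation and the carnitine shuttle held no gap of that size. ACSL1, the main acyl-CoA synthetase of muscle, read 11263 and 12535 on orbital arrays, against 16033 and 11439 on global arrays, with 201963_at (−0.19, adjusted p = 0.840 with limma). CRAT, which exchanges acetyl groups between CoA and carnitine, read 1798 and 992 on orbital arrays, against 2072 and 2558 on global arrays. Its groups did not overlap, and the difference was −0.79 (SE 0.34, adjusted p = 0.522 with limma). The outer and inner carnitine palmitoyltransferases CPT1A and CPT2, the carrier SLC25A20 and ACACB, which makes the CPT1 inhibitor malonyl-CoA, gave 7 tested probe sets with differences between −0.56 and 0.12.

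Among the acyl-CoA dehydrogenases, which take the first step of each round, ACADM (medium chains) read 4808 and 3862 on orbital arrays, against 6108 and 11159 on global arrays. Both orbital arrays were lower, and the global arrays also lay well apart from each other (−0.94, SE 0.33, adjusted p = 0.429 with limma). ACADVL (very long chains) read 37179 and 35352 on orbital arrays, against 19648 and 36536 on global arrays, overlapping. For the electron acceptors of these enzymes, ETFA, ETFB and ETFDH, differences lay between −0.37 and 0.30. Later steps gave differences between −0.48 and 0.26 on U133A. The trifunctional protein subunit HADHB read 21647 and 32147 on orbital arrays, against 21325 and 27334 on global arrays. ACAA1, the peroxisomal thiolase, had a difference of 0.18 (adjusted p = 0.853 with limma) with 202025_x_at and −0.41 with 214274_s_at. The mitochondrial thiolase ACAA2 had 0.26 on U133A and 0.39 on U133B. DECR1, the reductase that unsaturated chains need, read 24500 and 28964 on orbital arrays, against 34436 and 32228 on global arrays, without overlap (−0.32, adjusted p = 0.655 with limma). All 3 genes for unsaturated chains, DECR1, ECI1 and ECI2, had lower means in the orbital layer, none passing.

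For storage, PLIN2, the droplet coat protein, read 234 and 261 on orbital arrays with 209122_at, against 813 and 428 on global arrays. These values, like those of the uncoupling protein UCP3 with 219827_at (90.9 and 104 against 416 and 250), lay below the test level on average, so that only their order is given: both orbital arrays were lower by more than 1.5-fold in every pairing after the floor of 146.487 units. Such separation was seen in 4 of 66 member probe sets on U133A (4.6% of all probe sets), and in 2 of 13 on U133B (6.68% of all). PNPLA2, the lipase that starts triglyceride breakdown, spread widely, with 757 and 1860 on orbital arrays, against 746 and 2262 on global arrays. GPAT3, which starts glycerolipid synthesis, read 3246 and 7798 on orbital arrays, against 5163 and 5814 on global arrays. PPARGC1A, the coactivator of mitochondrial genes, read 22262 and 27124 on orbital arrays, against 19380 and 15907 on global arrays. Both orbital arrays were higher, by 0.48 (SE 0.23, adjusted p = 0.556 with limma). Its partner PPARA, a fatty acid receptor, had 0.15 with 223437_at and −1.24 with 226978_at. The second probe set read 439 and 1497 on orbital arrays, against 2977 and 1229 on global arrays, overlapping.

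Without the array whose labels conflict (U133A) or do not name the layer (U133B), 42 of 55 tested member differences between the layers moved by 0.25 or less and the other 13 by more. Beside FABP4 and FABP5, those on U133A were LPL (0.62, against −0.12 with all arrays), CRAT (−1.21, against −0.79), ETFA (−0.82, against −0.37), HADHB (0.41, against 0.13), ECI1 (0.08, against −0.22) and PNPLA2 (0.52, against −0.13). On U133B they were PPARA with 226978_at (−0.60, against −1.24) and 223437_at (−0.24, against 0.15), ACSL5 (0.11, against −0.50) and ACAA2 (0.75, against 0.39). Of these members, FABP5 alone then passed with limma. The values of LPL, ECI1, PNPLA2, ACSL5 and PPARA 223437_at changed sign, as did, by smaller shifts, those of FABP3 205738_s_at and of ACSL5 on U133A, so that no direction between the layers can be given for these probe sets.

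**Figure D2:**
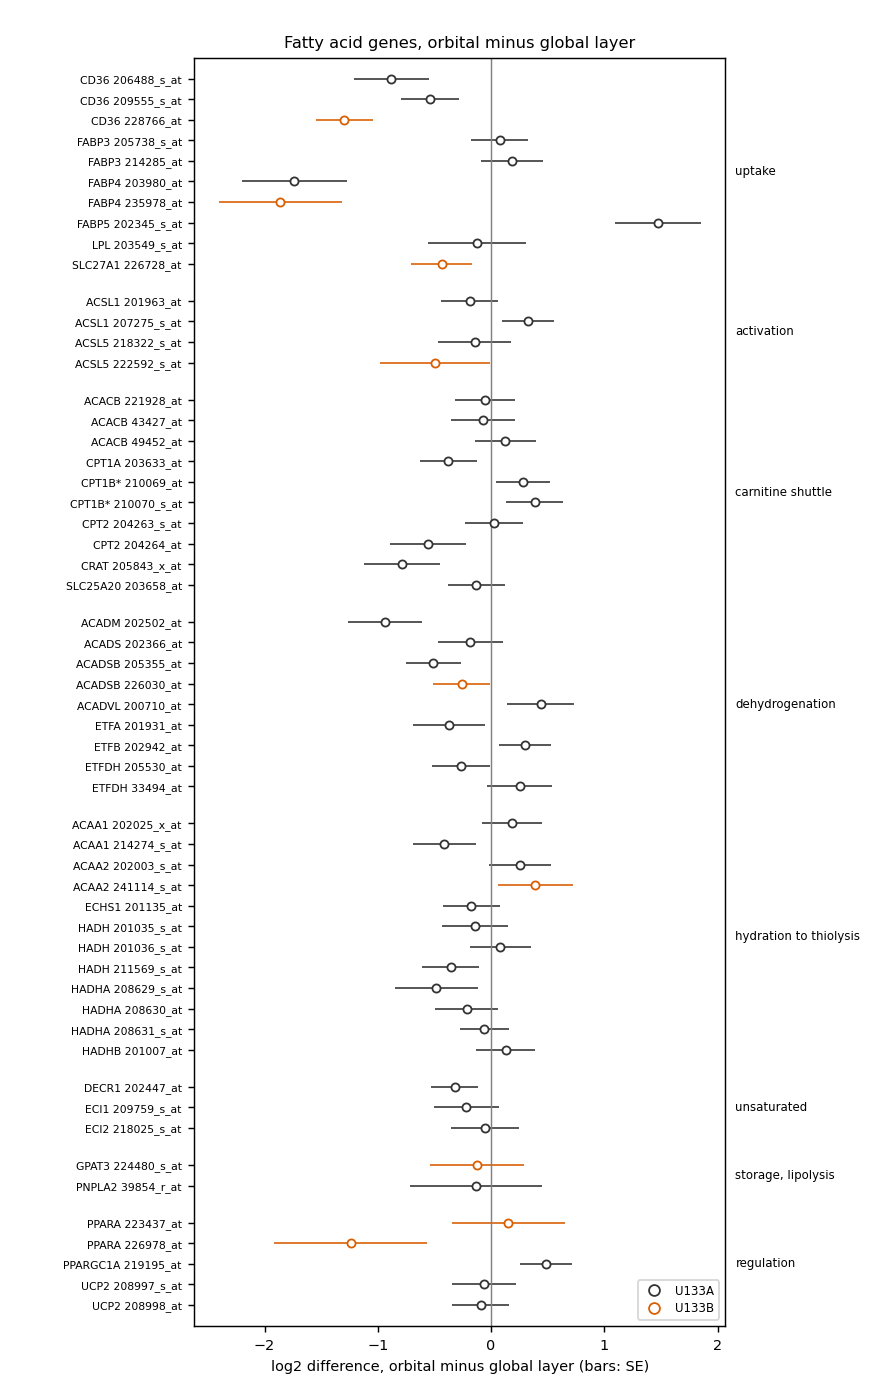
Log2 difference, orbital layer minus global layer (x axis), with its standard error for each tested member probe set on U133A and U133B, arranged by step of the pathway. Asterisks mark CPT1B probe sets that also list a read-through transcript. No point is filled, since no adjusted p was under 0.05; FABP4 (−1.74 and −1.86) and CD36 (−1.29) lie at the low end and FABP5 (1.47) at the high end.

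Of 117 further genes of lipid metabolism, on 6 lists (uptake and binding, other oxidation enzymes, ketone bodies, synthesis and desaturation, triglyceride and droplets, regulators), 55 were tested on U133A and 25 on U133B. None passed between the layers with limma, where 0.409% of all tested probe sets passed on U133A and 0.021% on U133B. In direction alone 23 were higher and 32 lower on U133A, and 9 higher and 16 lower on U133B. Groups did not overlap in 26 of 66 member probe sets on U133A, against 30.7% of all probe sets, and in 5 of 13 on U133B, against 29.2%.

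The second comparison set the medial rectus against the lateral rectus, the antagonist pair of horizontal gaze. No member passed with limma, of 49 tested on U133A and 5 on U133B, and no probe set at all passed on either array type (background 0% on both). At an unadjusted p under 0.05 there were 2 members on U133A and 0 on U133B, against 333 of 11907 (2.80%) and 406 of 11836 (3.43%) over all tested. The members leaned lower in the medial rectus on U133A, 34 lower and 15 higher, with a median of −0.21 against 0.0047 over all tested probe sets. The size of that median rested on single arrays: it was −0.059 without medial rectus replicate 2 and −0.10 without lateral rectus replicate 1, and −0.25 to −0.059 over all 4 omissions. On U133B, 3 of 5 were lower (median −0.24).

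HADHA, the hydratase and dehydrogenase subunit of the trifunctional protein, had the smallest p among members: 208629_s_at read 3775 and 4572 in the medial rectus, against 7871 and 6748 in the lateral rectus. The groups did not overlap, and the difference was −0.81 (SE 0.23, adjusted p = 0.999 with limma). Its probe set with the highest mean, 208631_s_at, read 12035 and 9913 in the medial rectus and 14658 and 9591 in the lateral rectus, overlapping (−0.12). The remaining one, 208630_at, had 0.08, so that the HADHA probe sets did not give 1 answer. ACADSB, which oxidises short branched acyl chains from isoleucine, read 2616 and 2177 in the medial rectus, against 3871 and 4091 in the lateral rectus. It did not overlap on U133A (−0.74, SE 0.25, adjusted p = 0.999 with limma) and did on U133B (−0.37, with 3201 and 2044 in the medial rectus and 4081 and 2675 in the lateral rectus).

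Other members had a larger p between the recti, although some differences were larger than that of HADHA. FABP4 read higher in the medial rectus on both array types, by 0.05 on U133A and 0.91 on U133B. On U133A, differences lay between −0.83 and 0.16 in the carnitine shuttle and between −0.82 and 0.24 in storage. Among regulators there they lay between −0.73 and 0.35. CD36 with 206488_s_at read 7225 and 8713 in the medial rectus and 8720 and 7635 in the lateral rectus. FABP5 read 6602 and 5148 in the medial rectus, against 7226 and 7691 in the lateral rectus (−0.35, adjusted p = 0.999 with limma). PPARGC1A read 8897 and 7255 in the medial rectus and 7955 and 7805 in the lateral rectus, a difference of 0.03. ECI1, an isomerase for double bonds, had the largest difference of a tested member on U133A, −1.32, with medial rectus replicate 1 far below the rest: the medial arrays read 170 and 1025, the lateral arrays 1249 and 875. Separation of 1.5-fold in every pairing was seen in 2 of 66 member probe sets on U133A (4.42% of all) and 0 of 13 on U133B (7.16% of all), and neither was tested because its mean was low. These were CPT1A with 210687_at, at 348 and 185 in the medial rectus and 575 and 583 in the lateral rectus, and PLIN2 with 215895_x_at, at 1213 and 1553 in the medial rectus and 448 and 174 in the lateral rectus. The other PLIN2 probe set, 209122_at, read 698 and 295 in the medial rectus, against 250 and 261 in the lateral rectus. Groups did not overlap in 18 of 66 member probe sets on U133A (26.5% of all) and 2 of 13 on U133B (29.2% of all).

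**Figure D3:**
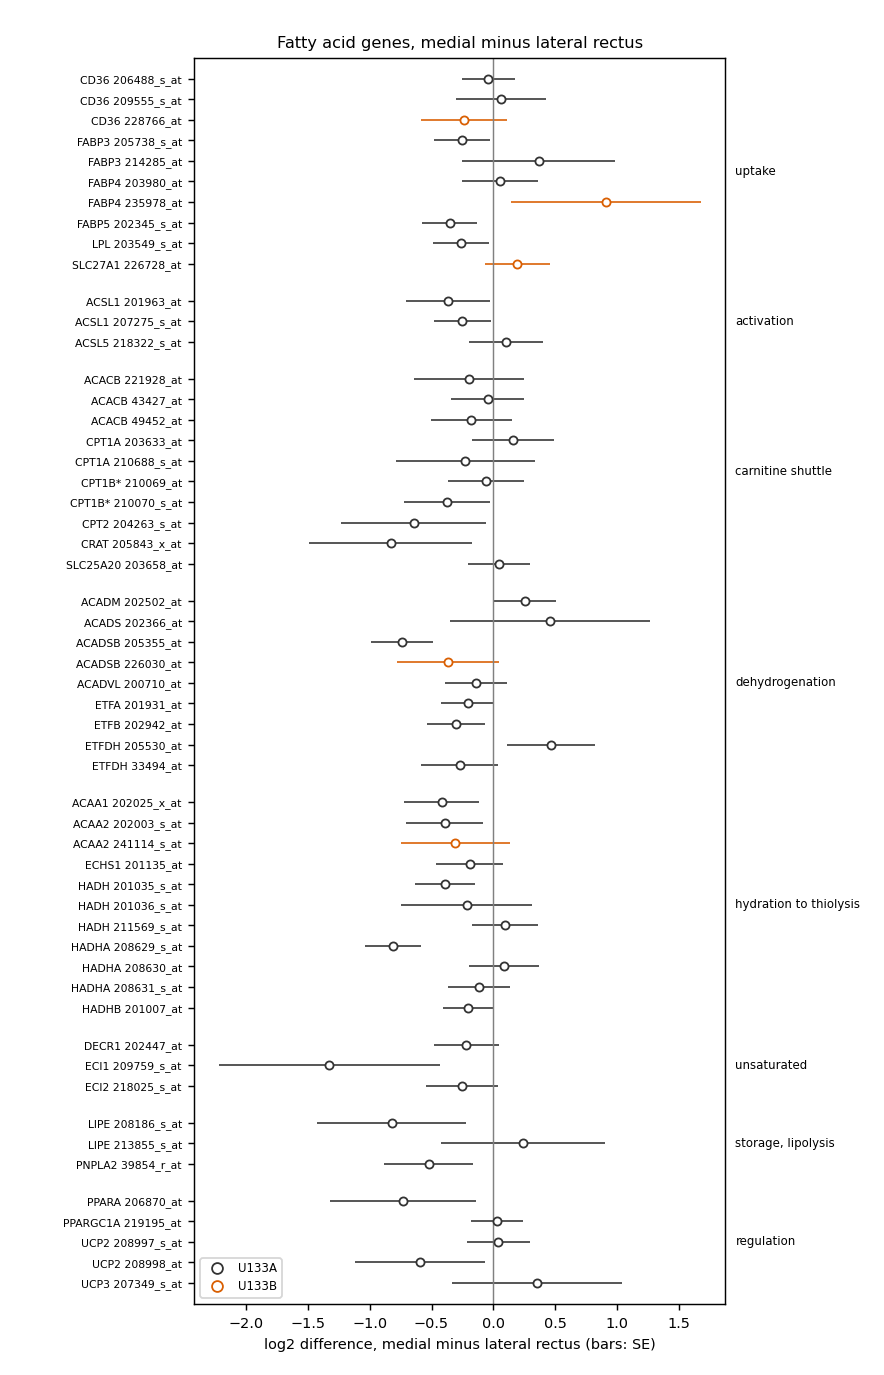
Log2 difference, medial rectus minus lateral rectus (x axis), with its standard error for each tested member probe set on U133A and U133B, by step. Asterisks mark CPT1B probe sets that also list a read-through transcript. No point is filled (adjusted p under 0.05), and more points lie left of 0 than right of it on U133A, 34 against 15.

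None of the 65 tested further lipid genes on U133A or 27 on U133B passed between the recti (32 higher and 33 lower, 13 higher and 14 lower). Muscle fibre markers read lower in the medial rectus in 9 of 10 on U133A (median −0.18, sums 808540 to 851544, against 867601 to 999641 in the lateral rectus), and endothelial markers in 7 of 7 (median −0.18, sums 21520 to 29978, against 26613 to 31060), none passing. Of the other marker lists, adipocyte sums on U133A were 5173 to 6113 in the medial rectus and 6870 to 7424 in the lateral rectus. Red cell sums there were 11938 to 14633 in the medial rectus and 27567 to 34583 in the lateral rectus. These were mostly HBB, at 12874 and 8909 in the medial rectus and 32867 and 25643 in the lateral rectus. AHSP on U133A (0.66) and ALAS2 on U133B (0.42) read higher in the medial rectus, and no red cell marker passed. The part of any marker list in the members' differences was not tested.

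The last comparison set the dissected layers, orbital and global with equal weight, against the whole recti, medial and lateral with equal weight. Here most members passed: 33 of 46 tested probe sets on U133A, 22 higher and 11 lower in the layers, and 6 of 8 on U133B, 5 higher and 1 lower. Over all probe sets 48.7% passed on U133A (18.9% higher and 29.8% lower) and 42.2% on U133B (20.6% higher and 21.6% lower). The members' median was 0.56 on U133A and 1.35 on U133B, while that of all tested probe sets was −0.18 and −0.21. Direction depended on level. With the filter at the 75th percentile, the median of all tested probe sets was 0.15 on U133A and 0.26 on U133B. That of the members was 0.47 and 1.28. Of all calls on U133A, 60.0% were then higher, near the 61.5% of member calls (16 higher and 10 lower of 35 tested). On U133B, 63.3% of all calls were higher, and members had 3 higher and 1 lower of 4 tested. The layers were amplified and the recti were not, so that the protocol and the kind of sample cannot be told apart in any value that follows. The ACTB 3′ to 5′ ratio was 2.84 to 5.87 on layer arrays and 0.716 to 1.04 on rectus arrays of U133A, and median intensity was 476 to 587.5 on layer arrays and 788 to 851.8 on rectus arrays.

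Scaling mattered for the balance of directions. Quantile normalization moved the median of all probe sets to 0.0021 on U133A and −0.036 on U133B and raised the share of higher calls among all calls on U133A to 51.1%, from 38.9%; the members then had 22 higher and 9 lower calls on U133A and 4 and 1 on U133B. A call was kept under every alternative in which the probe set was tested by 22 of the 33 on U133A (14 higher and 8 lower) and 4 of the 6 on U133B. The number of member calls lay between 25 and 31 on U133A and between 5 and 7 on U133B when any 1 array was left out, with 25 of 47 without the U133A orbital array of conflicting labels and 5 of 7 without U133B global layer replicate 1. With no filter on level, 24 of 66 passed and the median was −0.11, since most of the added, dim probe sets read lower on layer arrays.

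Some calls were lost when 1 array was left out. On U133A, leaving out orbital layer replicate 1 ended both calls of ACAA1 and those of ACACB 221928_at, CRAT, ECI2, ETFA, HADHA 208631_s_at and PNPLA2. Leaving out orbital layer replicate 2 ended both calls of ACAA1 and those of ACACB 221928_at, CPT1A, ECI1, ECI2, FABP3 and HADHA 208631_s_at. Without global layer replicate 1, ACAA1 214274_s_at, ACACB 221928_at, CRAT and PNPLA2 missed the threshold, and without global layer replicate 2 both ACAA1 probe sets, CRAT, ECI2, ETFA, FABP3 and HADHA 208631_s_at did. Among rectus arrays, medial rectus replicate 1 decided ACAA1 214274_s_at, CRAT, ECI2 and ETFA, and medial rectus replicate 2 decided ACAA1 202025_x_at, ACACB 221928_at, ECI2, HADHA 208631_s_at and PNPLA2. Lateral rectus replicate 1 decided both ACAA1 calls, ECI2, ETFA and PNPLA2, and lateral rectus replicate 2 decided ACAA1 202025_x_at, ACACB 221928_at, CPT1A, CRAT, ETFA and HADHA 208631_s_at. On U133B, the PPARA call was lost without either global array, orbital layer replicate 2, medial rectus replicate 1 or lateral rectus replicate 1. Each of these differences kept its sign with any array left out, and their ranges over the alternatives stand beside the values that follow.

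In uptake, 2 probe sets passed as higher and 2 as lower in the layers of 7 tested on U133A, and 1 each way of 3 on U133B. Over all tested probe sets, 18.9% passed as higher and 29.8% as lower on U133A, and 20.6% and 21.6% on U133B. LPL was higher, with 7130 and 20037 on orbital arrays and 13011 and 12978 on global arrays, against 4577 and 4485 in the medial rectus and 4951 and 5966 in the lateral rectus. Every layer array lay above every rectus array (1.33, SE 0.27, adjusted p = 0.00344 with limma). FABP5 was lower (−1.01, adjusted p = 0.00703 with limma), although orbital layer replicate 2 at 8125 lay above all 4 rectus arrays, which read 5148 to 7691. SLC27A1 was lower, with 3490 to 5111 in the layers and 6902 to 8138 in the recti (−0.78, adjusted p = 0.00782 with limma). FABP3 was higher with 214285_at (1.04, adjusted p = 0.0165 with limma, and 0.72 to 1.47 over the alternatives) and missed the threshold with 205738_s_at (0.42, adjusted p = 0.0562 with limma). FABP4 did not pass on either type (−0.35 and 0.85). Without the U133A orbital array of conflicting labels, the U133A difference was 1.70 for LPL, −0.72 for FABP5 and −0.056 for FABP4.

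CD36 gave opposite answers. Probe set 206488_s_at read 1182 to 3122 on the 4 layer arrays, against 7225 to 8720 on the 4 rectus arrays, and 228766_at read 16700 to 46724 on layer arrays, against 6037 to 11373 on rectus arrays. The first was −2.21 (SE 0.21, adjusted p = 0.000112 with limma) and the second 1.55 (SE 0.23, adjusted p = 0.000721 with limma), and neither overlapped. The second was 0.60 under quantile normalization and did not pass there, with an adjusted p of 0.0943 with limma. Probe set 209555_s_at had 0.24, so that no direction can be given for CD36 between layers and recti.

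The same held for other genes with several probe sets. Of 15 members with 2 or more tested probe sets of 1 array type or both, 8 had the same sign throughout. Of 8 members with 2 or more calls, 4 had calls both ways (CD36, HADHA, HADH and ACAA1). Over all genes the same was seen in 610 of 1295 with 2 or more calls, or 47.1%. HADHA had −2.30 (SE 0.23, adjusted p = 0.000145 with limma) with 208629_s_at, which read 829 to 1805 in the layers and 3775 to 7871 in the recti. With 208631_s_at it had 0.48 (adjusted p = 0.0377 with limma), which turned to −0.050 under quantile normalization. HADH, the dehydrogenase for short chains, had −1.40, −0.71 and 1.17 with its 3 probe sets, each past the threshold under every alternative that tested it. ACAA1 had −0.60 (−0.75 to −0.37 over the alternatives) and 1.00 (0.70 to 1.52).

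**Figure D4:**
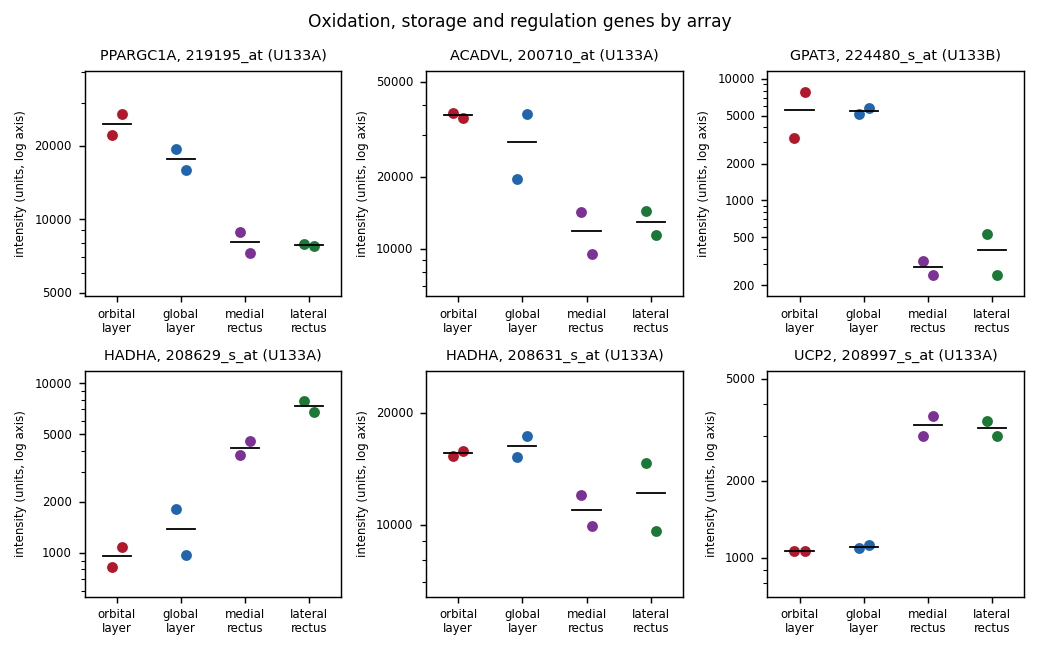
Scaled intensity (y axis, log scale) of 6 probe sets of oxidation, storage and regulation genes in each array of the orbital layer, global layer, medial rectus and lateral rectus, with 2 points a group. PPARGC1A, ACADVL and GPAT3 lie higher in the layers, and the HADHA probe sets 208629_s_at (829 to 1805 in the layers, 3775 to 7871 in the recti) and 208631_s_at (15201 to 17301 in the layers, 9591 to 14658 in the recti) differ in opposite directions.

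For activation, ACSL1 was higher with 201963_at, at 11263 to 16033 in the layers and 3217 to 6838 in the recti (1.35, SE 0.23, adjusted p = 0.00132 with limma), while 207275_s_at had −0.24 and did not pass. ACSL5, a synthetase of the endoplasmic reticulum and mitochondria, was lower on U133A, at 779 to 1093 in the layers and 1619 to 2140 in the recti (−1.05, adjusted p = 0.00353 with limma). Its U133B probe set, too low for a test there, read 1019 to 2352 in the layers and 214 to 950 in the recti, the other way round.

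In the carnitine shuttle, 7 probe sets passed as higher and 2 as lower of 10 tested on U133A, where 18.9% and 29.8% of all tested probe sets did. ACACB was higher with 3 probe sets, and 49452_at read 8339 to 12713 in the layers and 3230 to 5745 in the recti (1.38, SE 0.23, adjusted p = 0.00108 with limma). The other ACACB probe sets had 0.79 and 0.85, the last with 0.51 to 1.19 over the alternatives. CPT2, which remakes acyl-CoA inside the mitochondrion, was higher with 204263_s_at (1.06, adjusted p = 0.00856 with limma), and CRAT was higher (1.10, adjusted p = 0.0316 with limma), though lateral rectus replicate 1 at 1928 overlapped the layers and the difference was 0.69 to 1.51 over the alternatives. CPT1A, the liver-type outer enzyme, was lower, at 1425 to 1998 in the layers and 2255 to 3881 in the recti (−0.78, adjusted p = 0.0149 with limma, and −0.94 to −0.60 over the alternatives). SLC25A20, which swaps acylcarnitine for carnitine across the inner membrane, was also lower, at 2980 to 3678 in the layers and 4755 to 6900 in the recti (−0.82, SE 0.18, adjusted p = 0.00440 with limma). CPT1B, the muscle-type outer enzyme, is annotated on 2 probe sets that also list a read-through transcript with CHKB, and it is named here after its values were seen: 210069_at read 19640 to 30648 in the layers and 5794 to 9528 in the recti (1.72) and 210070_s_at had 0.85. Both passed, and neither overlapped.

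All 8 tested probe sets of the acyl-CoA dehydrogenases and electron transfer proteins on U133A had higher means in the layers. Over all tested probe sets 42.7% were higher. Of the 8, 4 passed, where 48.7% of all tested probe sets passed (18.9% as higher). Under quantile normalization 7 of 8 were higher and 4 passed, where 38.0% of all tested probe sets passed. ACADVL read 19648 to 37179 in the layers and 9487 to 14411 in the recti, without overlap (1.35, SE 0.22, adjusted p = 0.000957 with limma). ACADSB was higher on both array types, by 0.80 (adjusted p = 0.00309 with limma) on U133A and by 2.14 (adjusted p = 0.000128 with limma) on U133B, where it read 10558 to 14547 in the layers and 2044 to 4081 in the recti. ETFB, a subunit of the electron transfer flavoprotein, was higher by 0.68 (adjusted p = 0.00428 with limma), and ETFA, its other subunit, by 0.66 (adjusted p = 0.0233 with limma). The ETFA difference was 0.11 under quantile normalization, did not pass there, and reached 0.89 at most. ACADM (0.15), ACADS (0.64) and ETFDH (0.48 and 0.47) did not pass.

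Hydration to thiolysis was split, with 4 probe sets passing as higher and 4 as lower of 11 on U133A. Over all tested probe sets, 18.9% passed as higher and 29.8% as lower there. Beside HADHA, HADH and ACAA1, the mitochondrial thiolase ACAA2 was higher on both array types. It read 12004 to 19544 in the layers and 3874 to 7922 in the recti on U133A (1.54, SE 0.22, adjusted p = 0.000649 with limma) and 3036 to 5652 in the layers and 1802 to 2989 in the recti on U133B (1.01, adjusted p = 0.0120 with limma). Neither type overlapped, and both calls held under every alternative run. ECHS1, the hydratase for short chains, had −0.25 and HADHB 0.29, and neither passed.

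All 3 genes for unsaturated chains passed as higher in the layers on U133A, where 18.9% of all tested probe sets did. DECR1 read 24500 to 34436 in the layers and 9627 to 16136 in the recti (1.15, SE 0.18, adjusted p = 0.000790 with limma). ECI1 had 1.72 (SE 0.47, adjusted p = 0.0130 with limma, and 1.07 to 2.37 over the alternatives), with medial rectus replicate 1 at 170 far below the other rectus arrays, and ECI2 had 0.59 (adjusted p = 0.0474 with limma), near the threshold and 0.40 to 0.77 over the alternatives.

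In storage, GPAT3 showed the largest difference of any tested member in this comparison. It read 3246 and 7798 on orbital arrays and 5163 and 5814 on global arrays, against 319 and 245 in the medial rectus and 531 and 246 in the lateral rectus. Every layer array was far above every rectus array (4.05, SE 0.42, adjusted p = 0.000108 with limma), and the rectus values lay near the floor of 218.465 units, so that the size of the difference is uncertain. PNPLA2 was lower with 39854_r_at, at 746 to 2262 in the layers and 1873 to 4506 in the recti (−1.22, adjusted p = 0.0298 with limma), with overlap. Over the alternatives it was −1.62 to −0.82, with −0.89 without the U133A orbital array of conflicting labels. LIPE and PLIN2, the hormone-sensitive lipase and the droplet coat, were too low for a test here.

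Of the regulators, PPARGC1A was higher, at 15907 to 27124 in the layers and 7255 to 8897 in the recti (1.38, SE 0.15, adjusted p = 0.000192 with limma). Its groups were at least 1.5-fold apart in every pairing, and it passed under all 14 alternatives, with differences of 0.90 to 1.46. PPARA was higher with 223437_at on U133B (1.97, adjusted p = 0.0310 with limma), with overlap, since medial rectus replicate 2 read 2312 and the layers 1753 to 4698; the difference was 1.36 to 2.58 over the alternatives. UCP2, an inner membrane carrier, was lower with 208997_s_at, at 1059 to 1118 in the layers and 2978 to 3573 in the recti (−1.58, SE 0.18, adjusted p = 0.000237 with limma), and had 0.54 without passing with 208998_at. UCP3, the form typical of skeletal muscle, read 166 to 369 in the layers and 377 to 1010 in the recti with 207349_s_at, too low for a test. Groups did not overlap in 31 of 66 on U133A (31.4% of all probe sets) and in 6 of 13 on U133B (27.2% of all). They were apart by 1.5-fold in every pairing in 9 of 66 (11.3% of all) and in 2 of 13 (10.5% of all).

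**Figure D5:**
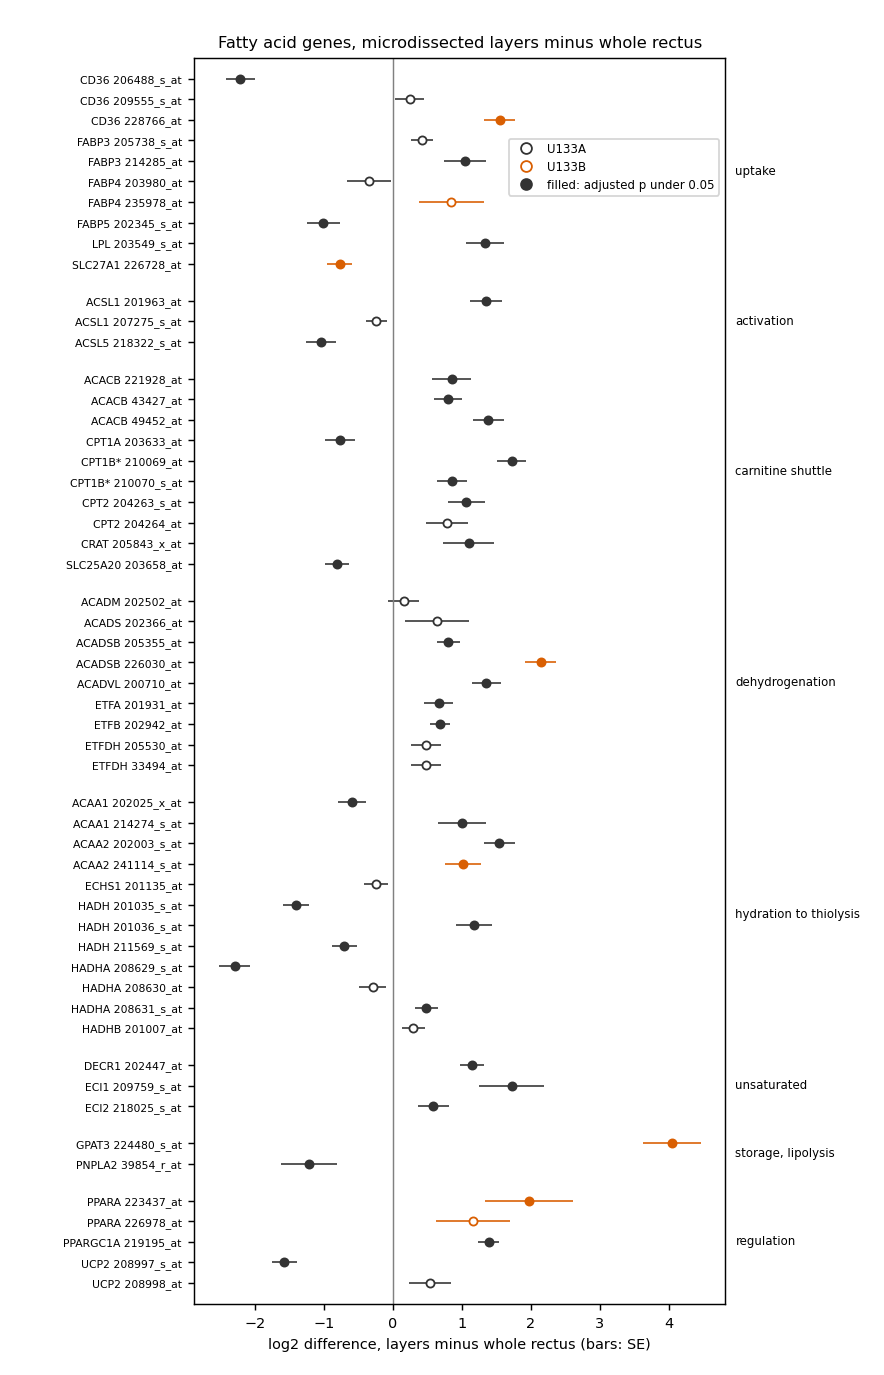
Log2 difference, dissected layers minus whole recti (x axis), with its standard error for each tested member probe set on U133A and U133B, by step; filled points have an adjusted p under 0.05 with limma and asterisks mark CPT1B probe sets that also list a read-through transcript. The 8 probe sets of dehydrogenases and electron transfer on U133A all lie right of 0, CD36 and HADHA lie on both sides, and GPAT3 at 4.05 lies farthest right.

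Each further lipid gene was counted once an array type, by its brightest probe set with 1 symbol, whereas the shares over all count every probe set. Of these genes, 10 passed as higher and 22 as lower in the layers of 62 tested on U133A. Over all tested probe sets there, 18.9% passed as higher and 29.8% as lower. On U133B, 6 passed as higher and 5 as lower of 27, where 20.6% and 21.6% of all tested probe sets did. In direction alone, 25 were higher and 37 lower on U133A and 17 higher and 10 lower on U133B. In other oxidation, 3 genes passed as higher and 3 as lower on U133A, and 0 as higher and 1 as lower on U133B. HSD17B4, a peroxisomal oxidation enzyme, was higher (1.06, adjusted p = 0.000925 with limma), as was ACOT9 (1.70), a mitochondrial acyl-CoA thioesterase. ACOT13, another thioesterase, was lower (−1.02), as was ACOT8 on U133B (−1.40). Of the regulators, the AMP-activated kinase subunits PRKAG2 (−1.72), PRKAB1 (−2.04) and PRKAB2 (−1.18) were lower on U133A. On U133B, PRKAG2 was lower as well (−0.56), while PRKAB2 was higher (1.54), so that its probe sets disagreed. RXRA, the partner receptor of PPARA, was lower (−1.38, adjusted p = 0.000347 with limma). In triglyceride and droplets, 2 genes passed as higher and 6 as lower on U133A, and 3 as higher and 0 as lower on U133B. AGPAT1 (−1.20), the acyltransferase after GPAT, and PLIN3 (−1.63) were lower on U133A. MGLL, the last lipase of triglyceride breakdown, was higher on both array types (0.84 and 1.54), and GPAT4 was higher on U133B (1.56). In synthesis, FASN, fatty acid synthase, was lower (−1.60, adjusted p = 0.00207 with limma), as were SCD on U133A (−1.13) and ELOVL3 on U133B (−2.04). SCD5, a desaturase, went both ways by array type (−2.08 and 1.60). In uptake and binding, ACSL6 was lower (−1.44) and SLC27A2 higher (0.89); of 3 ketone body genes tested, none passed with limma.

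Of 7 endothelial markers tested on U133A, 6 read lower and 1 higher in the layers. VWF (−0.73) and TEK (−1.10) passed as lower, where 29.8% of all tested probe sets did. Of 4 tested on U133B, 3 read higher and 1 lower. EMCN (1.29) and FLT1 (1.76) passed as higher, where 20.6% of all tested probe sets did. Summed levels of the endothelial markers were 19057 to 29331 in the layers and 21520 to 31060 in the recti on U133A. On U133B they were 23093 to 27402 and 8308 to 13824. Adipocyte sums were 4437 to 5268 in the layers and 5173 to 7424 in the recti on U133A. Of the 10 muscle fibre markers on U133A, 6 read lower (4 of them passing) and 4 higher (1 passing) in the layers. Over all tested probe sets there, 42.7% read higher and 48.7% passed (29.8% as lower and 18.9% as higher), so that these counts lay near the background. Muscle fibre sums were 647566 to 812141 in the layers and 808540 to 999641 in the recti. The part of these markers in the members' differences was not tested.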

How the data were processed

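RNA of the 4 kinds of macaque sample was measured on human U133A and U133B arrays. The values deposited by the authors are linear intensities, 1 for each probe set on each array; the software that made them is not given in the sources used here, and detection calls were not used here. Gene symbols came from the platform annotation (19071 probe sets of U133A and 15432 of U133B with 1 symbol, 1043 and 554 with several, 2169 and 6659 with none). Each array was scaled to a common mean after trimming 2% at either end, values below the pooled 20th percentile (146.487 and 218.465) were set to that level, and values were converted to log2. Controls (68 a table) took no part in tests. For each comparison, probe sets were tested when their mean log2 value on the arrays of that comparison was at or above the median of the table (653.942 and 802.702). Differences were tested with limma 3.58.1 in R 4.3.3 (lmFit, eBayes with an intensity trend, two-sided, Benjamini-Hochberg over all tested probe sets of a table), for each table on its own and checked on simulated data. Figures and tables used Python 3.11.15, pandas 2.3.3 and matplotlib 3.10.9. Precision is limited by 2 arrays a group. The members, gene lists and tests were chosen with earlier results of these data known. Members named with statistics were those past the threshold, those separated by 1.5-fold in every pairing of arrays, and the smallest p of each of 8 pathway steps. Of further genes, up to 4 past the threshold a list were named. Further and marker genes were counted once a table, by the probe set of 1 symbol with the highest mean. Alternatives were quantile normalization, other floors (5th and 40th percentile), no filter or one at the 75th percentile, variances without trend, all 4 groups in 1 fit, a replicate block, and each array left out.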

Additional observations from a re-analysis of the deposited data

How the results depend on the processing

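Between orbital and global layer on U133A, the count of members passing was 0 under the 7 alternatives of scaling, floor, filter and variance, 1 with the replicate block (FABP4 203980_at, adjusted p = 0.0121 with limma) and 0 to 1 with an array left out: 1 without orbital layer replicate 1 (FABP5) and 1 without orbital layer replicate 2 (FABP4). The shared replicate numbers name arrays and are not known to pair them: deviations of same-numbered arrays correlated at 0.256 on U133A and 0.132 on U133B over tested probe sets, with 2 pairs, and the block raised calls over all probe sets to 92 on U133A, from 39, and to 26 on U133B, from 2. No paired analysis was possible for the recti because their titles share fewer than 2 numbers. Where leaving out an array left 1 array in a group, that array was assumed to vary like the others.

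Some differences changed sign, none of them past the threshold except HADHA 208631_s_at, which between layers and recti was −0.050 under quantile normalization. With an array left out, the orbital against global difference on U133A lay between −0.43 and 0.055 for ACSL1 201963_at (above 0 without global layer replicate 1) and between −0.93 and 0.67 for PNPLA2 (0.67 without global layer replicate 2, 0.52 without orbital layer replicate 1). On U133B it lay between −1.10 and 0.11 for ACSL5 (above 0 without global layer replicate 1), between −0.76 and 0.51 for GPAT3 (above 0 without orbital layer replicate 1) and between −0.56 and 0.86 for PPARA 223437_at (−0.24 without global layer replicate 1, −0.56 without orbital layer replicate 2). Medial against lateral, the U133A difference lay between −0.82 and 0.081 for ACSL1 201963_at (above 0 without medial rectus replicate 2) and between −0.42 and 0.19 for HADHA 208631_s_at (0.19 without lateral rectus replicate 1, 0.022 without medial rectus replicate 2). The members' median for medial against lateral rectus on U133B lay between −0.049 and 0.22 with an array left out (above 0 without medial rectus replicate 2), and that for layers against recti on U133A was −0.11 with no filter, where dim probe sets were added. The cause was not tested for the others.

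Of calls between layers and recti, 11 of 33 on U133A and 2 of 6 on U133B were lost under at least 1 alternative, most near the threshold; CD36 228766_at was lost under quantile normalization alone (0.60). Signals near the floor limit ACSL4, ACADL, PLIN2, LIPE and UCP3, and 2 arrays a group limit every comparison.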
